A study of Homo sapiens with 24 samples.

Results

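HEK293T cells, a human embryonic kidney line, were transfected for 48 h with siRNAs against RPRD1A and RPRD1B together and compared with cells that received a control siRNA. The double knockdown is the pair of samples labelled RPRD1A_RPRD1A_KD, and the control is the pair labelled CTRL, so 4 of the 24 samples of the series (16 of them HEK293T) are the members. The label names RPRD1A in both positions, whereas the names of the deposited tables pair 1A with 1B, and the transcripts of both genes were low in these samples (below). The single knockdowns RPRD1A_KD and RPRD1B_KD, 2 samples each, entered the same fit, which therefore held 8 samples in 4 groups. Every one of these samples was siRNA transfected, in medium with serum, and nothing in the labels says whether the 2 samples of a group came from separate cultures, so the p-values measure only the spread between these samples, which may be technical. The series was designed to ask how RPRD proteins affect the amount of RNA that accumulates at steady state. The comparison of the double with the single knockdowns asks whether silencing both genes changed transcripts beyond the sum of the single effects.

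RPRD1A and RPRD1B are closely related nuclear proteins with a domain that binds the repeated C-terminal tail (CTD) of RNA polymerase II when it is phosphorylated, and RPRD2 is a larger member of the same family. The CTD is phosphorylated by kinases as polymerase moves from the promoter into the gene, and it is dephosphorylated by phosphatases such as RPAP2, with which RPRD1A and RPRD1B are known to associate. Both proteins can pair with themselves and with each other through a coiled-coil region, which is why they are often studied together. RPRD1B, also called CREPT, is known as a gene that promotes proliferation and cyclin D1 transcription in cancer cells.

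Polyadenylated RNA was sequenced with the QuantSeq 3′ kit, so that each read marks the 3′ end region of a transcript. The 8 samples held 1833696 to 2889895 counts in genes and detected 15975 to 16839 genes, and the detection floor of 3 counts equals 1.03 to 1.71 CPM (the standard unit of a gene's counts divided by the scaled size of its library). The replicate number separated the samples more than the siRNA did. The first principal component (38.9% of the variance) placed the 4 samples numbered 1 at -14.3 to -13.2 and the 4 numbered 2 at 8.55 to 19.6. The second (16.8%) ran from the controls, at -19 and -8.15, to the double knockdown, at 13.8 and 4.21, with the singles between -0.226 and 5.82. Markers of the 293 lineage were present: VIM had a median of 134 CPM, and the summed level of the 9 markers was 221 and 264 CPM in the controls and 230 and 272 CPM in the double knockdown. The defining markers of other cell types were at 0 in all 8 samples for PTPRC, CD74 and CD3E (leukocytes), PECAM1, VWF, CDH5 and TEK (endothelium) and COL1A2 and DCN (fibroblasts).

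The targeted transcripts were both low in the double knockdown. RPRD1A (chromosome 18, 35984387 to 36067576, minus strand, GRCh38) stood at 156 and 166 CPM in the 2 controls and at 27.4 and 14.7 CPM in the 2 double-knockdown samples. The groups did not overlap, and the remaining RPRD1A level was 13.1% of the control mean. The log2 fold change was -3.0 ± 0.18 (SE, n = 2 per group, edgeR quasi-likelihood adjusted p = 7.74e-16). In bulk RNA, a transcript removed from most cells and a transcript lowered in every cell cannot be told apart.

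The same siRNA alone left RPRD1A at 16.8 and 23.4 CPM, which is 12.5% of the control mean. The double knockdown therefore differed from RPRD1A_KD by only -0.02 ± 0.24 in log2 for RPRD1A (edgeR adjusted p = 0.992). RPRD1A was also lower in RPRD1B_KD, at 86.2 and 102 CPM, with a log2 fold change of -0.77 ± 0.13 (edgeR adjusted p = 0.00148). This was not particular to RPRD1B_KD. In RPRD2_KD, the RPRD2 knockdown outside this fit, RPRD1A stood at 75.1 and 100.01 CPM. RPRD2_KD was not tested against the controls. The single effects on RPRD1A sum to -3.74, and the double effect fell short of that sum by 0.75 ± 0.28, a difference that did not pass the test over all genes (edgeR adjusted p = 0.678).

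RPRD1B (chromosome 20, 38033546 to 38127780, plus strand) was a low transcript in these libraries, at 28.5 and 28.2 CPM in the controls. It fell to 14.2 and 8.1 CPM in the double knockdown, 39.3% of the control mean, with a log2 fold change of -1.39 ± 0.27 (edgeR adjusted p = 0.00288). RPRD1B_KD alone left 10.5 and 6.2 CPM (29.4%, log2 fold change -1.79 ± 0.27, adjusted p = 0.000299). The double-knockdown samples overlapped with the RPRD1B_KD samples, and the difference of 0.40 ± 0.32 was not called (adjusted p = 0.856). RPRD1A_KD left RPRD1B at 27.4 and 23.4 CPM, a log2 fold change of -0.17 ± 0.23 that was not called (adjusted p = 0.891). Without the second control sample or the second double-knockdown sample, the fall of RPRD1B in the double knockdown was no longer called.

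RPRD2, which no siRNA of these groups targets, stayed between 89.0 and 104 CPM in the 8 samples. It stood at 98.7 and 102 CPM in the controls and at 101 and 103 CPM in the double knockdown, with a log2 fold change of 0.02 ± 0.12 (edgeR adjusted p = 0.967).

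GIPC1, an adaptor protein of endosomal trafficking with a PDZ domain, was low wherever the RPRD1B siRNA was used. It stood at 205 and 178 CPM in the controls, at 155 and 169 CPM in RPRD1A_KD, at 55.8 and 47.2 CPM in RPRD1B_KD and at 64.8 and 69.9 CPM in the double knockdown. The 4 samples that received the RPRD1B siRNA lay below the 4 that did not. The log2 fold change in the double knockdown was -1.49 ± 0.12 (edgeR adjusted p = 2.49e-11), beside -1.89 ± 0.12 in RPRD1B_KD (adjusted p = 2.13e-14) and -0.23 ± 0.11 in RPRD1A_KD (adjusted p = 0.501). The difference of the double knockdown from RPRD1A_KD was -1.26 ± 0.12 (adjusted p = 7.93e-09). GIPC1 lies on chromosome 19 (14477760 to 14496149, minus strand), away from both targeted genes, and GIPC3, the other family member tested, had a log2 fold change of -0.37 that was not called.

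**Figure D1:**
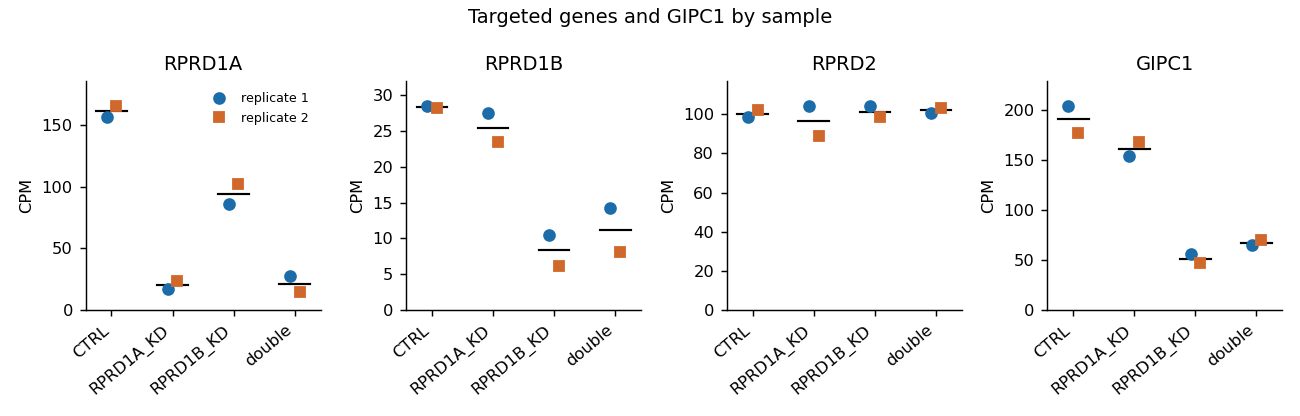
Levels of RPRD1A, RPRD1B, RPRD2 and GIPC1 in CPM (vertical axes, starting at 0) in the 8 samples of the 4 groups (horizontal axis; "double" is RPRD1A_RPRD1A_KD). Circles are replicate 1, squares replicate 2 and bars the mean of 2 samples. RPRD1A is as low in the double knockdown (27.4 and 14.7 CPM) as in RPRD1A_KD, GIPC1 is low wherever the RPRD1B siRNA was used, and RPRD2 lies between 89.0 and 104 CPM throughout.

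Over all genes, more transcripts were called lower than higher in the double knockdown. Of 11544 genes tested, 121 were called (1.05%; called means a Benjamini-Hochberg adjusted p under 0.05 in edgeR's quasi-likelihood test), of which 106 were lower (0.918%) and 15 higher (0.13%). The same fit called 45 genes in RPRD1A_KD (0.39%), 40 lower (0.347%) and 5 higher (0.0433%), and 84 in RPRD1B_KD (0.728%), 74 lower (0.641%) and 10 higher (0.0866%). The 3 comparisons share the control samples, and the single counts ranged from 8 to 83 and from 1 to 131 when 1 sample was left out and were 1 and 1 without the replicate block. At an unadjusted p under 0.05 the double knockdown had 1420 genes (12.3%). The count of 121 rests on treating the replicate number as a block: without the block 2 genes were called, RPRD1A and GIPC1. It was 43 without the first control sample, 65 without the second, 69 without the first double-knockdown sample and 48 without either RPRD1B_KD sample, and DESeq2 called 44, all lower.

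Most called changes were small. The median log2 fold change of the 106 lower genes was -0.57, the smallest fall was -0.27, and 15 fell by a log2 of 1 or more. The median of the 15 higher genes was 0.67, the smallest rise was 0.35, and 5 rose by a log2 of 1 or more. The controls and the double-knockdown samples did not overlap in 92 of the 106 and 13 of the 15, beside 31.4% of all genes tested. The genes were called from these same samples, so the higher share is no further support for the calls. The median level over the 8 samples was 120 CPM for the lower genes, 59.4 CPM for the higher ones and 28.3 CPM for all genes tested.

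**Figure D2:**
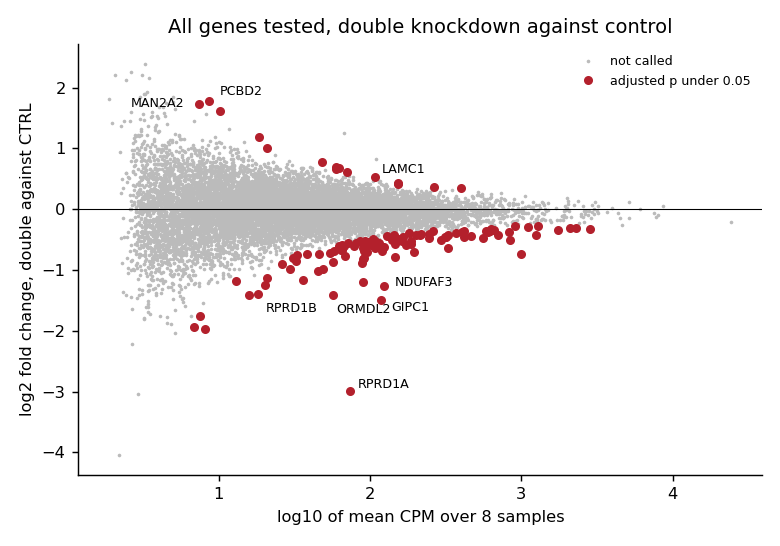
Log2 fold change of the double knockdown against CTRL (vertical axis) against the log10 of the mean CPM over 8 samples (horizontal axis, log scale) for the 11544 genes tested. Red points are the 121 genes with an adjusted p under 0.05; 106 lie below 0 and 15 above, and RPRD1A is the lowest of the red points.

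Among the falling genes named by the rule, NDUFAF3, ORMDL2 and TMEM141 had the smallest adjusted p after RPRD1A and GIPC1. NDUFAF3, an assembly factor of mitochondrial respiratory complex I, stood at 148 and 196 CPM in the controls and at 61.7 and 82.6 CPM in the double knockdown. Its log2 fold change was -1.26 ± 0.12 (edgeR adjusted p = 1.04e-09), and within the replicate pairs log2(CPM + 1) fell by 1.25 and by 1.24. In the single knockdowns NDUFAF3 had -0.71 ± 0.11 with the RPRD1A siRNA (adjusted p = 0.000204) and -0.26 ± 0.10 with the RPRD1B siRNA (adjusted p = 0.306).

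ORMDL2, a membrane protein of the endoplasmic reticulum whose family restrains the first enzyme of sphingolipid synthesis, stood at 76.5 and 80.6 CPM in the controls and at 23.2 and 35.1 CPM in the double knockdown. The double-knockdown samples lay below all 6 others, the lowest of which had 48.1 CPM. The log2 fold change was -1.42 ± 0.17 (edgeR adjusted p = 6.81e-07). TMEM141, a small membrane protein, went from 117 and 128 CPM to 41.6 and 64.5 CPM, a log2 fold change of -1.19 ± 0.15 (edgeR adjusted p = 2.00e-06). Here too the double-knockdown samples lay below the other 6, whose lowest value was 75.0 CPM. ORMDL2 and TMEM141 also stood below the controls in RPRD2_KD, as did other named falling genes (below).

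Other named falling genes include a transporter, 2 enzymes and a relative of an autophagy protein. SLC46A1, the proton-coupled folate transporter, stood at 28.5 and 25.1 CPM in the controls and at 15.8 and 9.3 CPM in the double knockdown, a log2 fold change of -1.13 ± 0.26 (edgeR adjusted p = 0.018). FUOM, a mutarotase that interconverts forms of the sugar fucose, went from 63.4 and 57.4 CPM to 27.4 and 32.0 CPM (-1.01 ± 0.18, adjusted p = 0.000936). ATG16L2, a relative of the autophagy protein ATG16L1, went from 71.3 and 54.7 CPM to 35.3 and 28.2 CPM (-0.98 ± 0.17, adjusted p = 0.0006). ABHD11, a mitochondrial hydrolase, had -1.18 ± 0.30 from 18.3 and 22.3 CPM (adjusted p = 0.0388). Control and double-knockdown samples were apart in all 4 genes, which the naming rule requires, so this is no further support. The call of ABHD11 was lost after GC correction, in a fit of only the groups compared and without any one control, double-knockdown or RPRD1B_KD sample. That of SLC46A1 was lost without any one of these samples except the first double-knockdown sample, and that of FUOM without the first control.

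Among the genes that fell most were low transcripts that do not encode a known protein. RNU1-85P, a copy of the U1 small nuclear RNA gene annotated on chromosome 17, had 27 and 35 counts in the controls and 7 and 11 in the double knockdown (log2 fold change -1.96 ± 0.40, edgeR adjusted p = 0.00402). RNU1-85P lies within TEX14 on the same strand, and as a near-identical copy of other U1 genes its counts may be split among copies, so its value is uncertain. LIPE-AS1 went from 25.7 and 26.9 CPM to 8.4 and 11.2 CPM (-1.41 ± 0.28, adjusted p = 0.00315) and VPS9D1-AS1 from 22.8 and 35.1 CPM to 11.1 and 13.5 CPM (-1.24 ± 0.27, adjusted p = 0.00953). Both are annotated opposite to the protein-coding genes in their names. Whether strand was used in counting is not given in the sources used here, so reads of an antisense transcript and of its partner cannot be told apart. Of the 119 called genes matched to a single annotated gene, 60 overlap a gene on the opposite strand (50.4%, beside 57.4% of all tested genes matched), RPRD1B, GIPC1, ATG16L2, SLC46A1 and ABHD11 among them. The unnamed locus AC027644.3 (-1.94 ± 0.48) and C6orf226 (-1.76 ± 0.43), which is annotated as protein-coding, were also called lower, at 9.7 to 13.1 CPM in the controls. RNU1-85P, AC027644.3 and C6orf226 lost their call without any one control or double-knockdown sample, LIPE-AS1 without the first control or the second double-knockdown sample, and VPS9D1-AS1 without the second sample of either group.

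Some called genes outside the naming rule were picked here after their values were seen. They include RNU5F-1 (-1.17) and RNU4ATAC (-0.68), which are annotated as small nuclear RNAs, WNT10B (-0.90), a secreted Wnt ligand, ATF5 (-0.80), a stress-related transcription factor, H1FX (-0.74), a linker histone, and PGAM1 (-0.82), a glycolytic enzyme. The abundant transcripts GAPDH (-0.31) and RPS3 (-0.32) were also called lower. Control and double-knockdown samples overlapped for RNU5F-1, RNU4ATAC, H1FX and RPS3. Whether the calls of these picked genes hold when a sample is left out was not examined.

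Rising genes were fewer, and the 3 with the largest rise were low in the controls. PCBD2, a pterin dehydratase, stood at 6.8 and 1.4 CPM in the controls and at 13.7 and 12.7 CPM in the double knockdown (log2 fold change 1.79 ± 0.44, edgeR adjusted p = 0.0266). MAN2A2, a Golgi mannosidase of N-glycan processing, went from 3.4 and 2.7 CPM to 10.5 and 10.0 CPM (1.74 ± 0.46, adjusted p = 0.0491). HOXD4, a homeobox transcription factor, went from 5.7 and 3.6 CPM to 17.9 and 10.8 CPM (1.61 ± 0.39, adjusted p = 0.0224). PCBD2 overlaps CATSPER3, and HOXD4 overlaps HOXD3, on the same strand, so these counts could hold reads of the overlapping gene.

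EEF1AKMT2, which methylates the elongation factor eEF1A, rose from 8.0 and 12.8 CPM to 28.5 and 20.8 CPM (1.19 ± 0.29, edgeR adjusted p = 0.0227). FBXO28, a substrate adaptor of a ubiquitin ligase, rose from 14.3 and 15.5 CPM to 27.4 and 32.0 CPM (1.00 ± 0.25, adjusted p = 0.0264). Both genes and several other risers also stood above the controls in RPRD2_KD, a knockdown outside this fit (below). The other risers reported here were better measured and moved less. They were DENND5B (0.78), MARF1 (0.69), the O-GlcNAc transferase OGT (0.67), the spindle protein FAM83D (0.66), the laminin chain LAMC1 (0.54), the corepressor BCOR (0.43) and GTF3C6 (0.41), a subunit of the polymerase III factor TFIIIC. For LAMC1 the levels were 85.0 and 83.8 CPM in the controls, 142 and 107 CPM in the double knockdown and 130 and 118 CPM in RPRD1B_KD. Of these 12 risers none kept its call without the second RPRD1B_KD sample or without the first. Leaving out 1 sample moved PCBD2 between 1.05 and 3.13 and LAMC1 between 0.36 and 0.73.

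**Figure D3:**
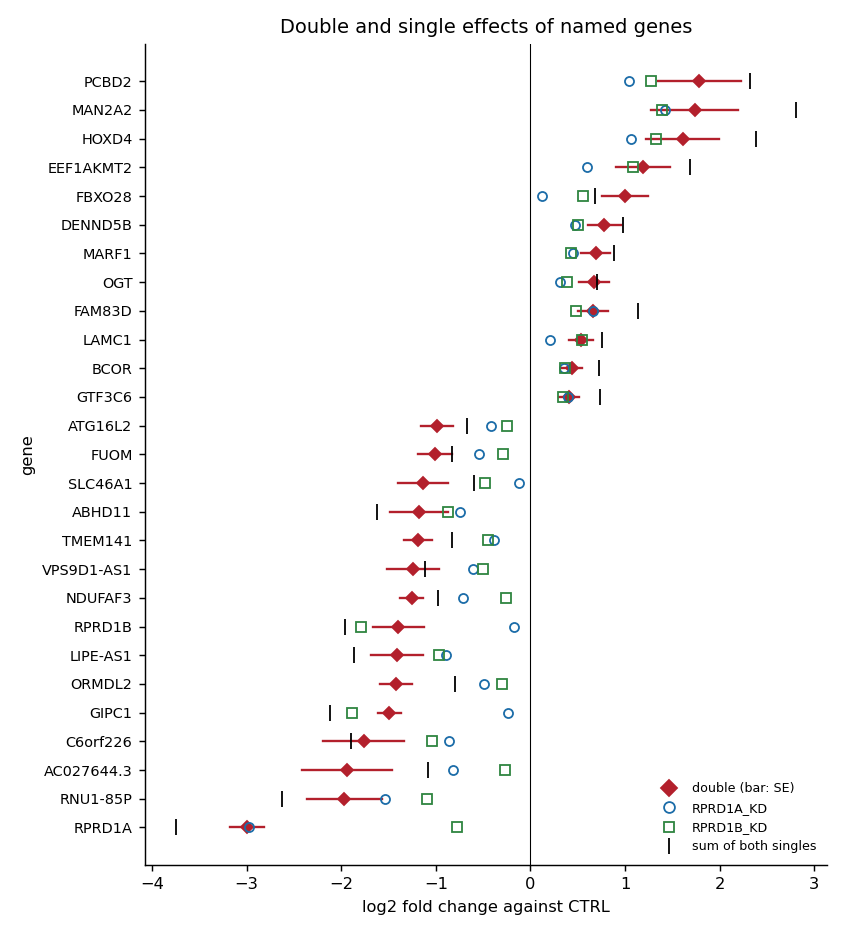
Log2 fold change against CTRL (horizontal axis) of 27 called genes named by the rule (vertical axis), with 12 rising and 15 falling in the double knockdown. Diamonds are the double knockdown with bars of 1 SE, circles RPRD1A_KD, squares RPRD1B_KD and ticks the sum of both single effects; the diamond lies beyond the tick for ORMDL2, NDUFAF3 and TMEM141 and short of it for RPRD1A, RPRD1B and GIPC1.

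The promoters of 3 falling and 2 rising genes are shown as the 150 bases before the RefSeq start (GRCh38.p14), 5′ to 3′ on the strand of the gene. They are the named called genes with a single promoter window that touches no annotated exon, and capitals mark the GC box GGGCGG on either strand. The SLC46A1 window precedes the RefSeq start but lies inside the GENCODE span of SLC46A1 (28394756 to 28407197). The windows are chr9:136791194-136791343 for TMEM141 (plus strand), chr17:28406213-28406362 for SLC46A1 (minus), chr16:89711706-89711855 for VPS9D1-AS1 (plus), chr10:124791888-124792037 for EEF1AKMT2 (minus) and chr1:183023270-183023419 for LAMC1 (plus).
TMEM141: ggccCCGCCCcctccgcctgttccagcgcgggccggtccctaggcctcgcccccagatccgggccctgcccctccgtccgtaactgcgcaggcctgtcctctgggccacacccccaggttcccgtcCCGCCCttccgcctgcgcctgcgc
SLC46A1: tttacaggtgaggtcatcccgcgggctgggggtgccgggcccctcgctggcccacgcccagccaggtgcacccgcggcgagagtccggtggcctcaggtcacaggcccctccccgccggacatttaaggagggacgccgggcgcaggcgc
VPS9D1-AS1: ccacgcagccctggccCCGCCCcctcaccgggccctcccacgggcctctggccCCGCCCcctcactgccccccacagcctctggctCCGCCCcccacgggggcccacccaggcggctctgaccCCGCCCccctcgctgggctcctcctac
EEF1AKMT2: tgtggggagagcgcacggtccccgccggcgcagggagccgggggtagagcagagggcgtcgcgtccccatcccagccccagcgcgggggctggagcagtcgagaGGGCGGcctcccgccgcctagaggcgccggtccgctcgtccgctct
LAMC1: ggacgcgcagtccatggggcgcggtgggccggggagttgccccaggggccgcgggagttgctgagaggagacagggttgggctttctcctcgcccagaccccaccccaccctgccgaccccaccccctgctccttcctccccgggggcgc
The GC content was 77.3% for TMEM141, 74% for SLC46A1, 80.7% for VPS9D1-AS1, 77.3% for EEF1AKMT2 and 74.7% for LAMC1. The GC box stood 4 times in VPS9D1-AS1, 2 times in TMEM141 and 1 time in EEF1AKMT2, and in neither SLC46A1 nor LAMC1. Over the 250 bases before the start, on either strand, GGGCGG was in 80% of the 65 called lower genes with a single window, in 75% of the 8 called higher genes with one, in 73.4% of the 6119 genes tested with one and in 40.9% of all 22114 promoters of the table. The motif CCAAT was in 36.9%, 25%, 37.3% and 33.4%. The median GC content of these windows was 66% in the lower genes, 68.4% in the higher and 66% in all genes tested.

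The falling genes were short and GC-rich in their transcripts. The 104 of 106 lower genes matched to a single GENCODE gene had a median span of 7194 bases, against 31762 for the 11357 tested genes that matched. The 15 rising genes had a median span of 47961 bases. Median transcript GC content was 58.2% in the lower genes, 46.8% in the higher and 49.4% in all. The transcript with the most exons had a median of 6, 15 and 9 exons. The libraries also differed in how counts followed GC content: the Spearman correlation across genes of a sample's deviation with GC was 0.145 and 0.0592 in the controls and -0.222 and 0.0999 in the double knockdown. After a correction of each library for GC content within the blocked fit, 122 genes were called, 95 lower and 27 higher, and 88 of them were among the 121. What the GC difference contributes to the remaining calls was not tested.

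Across 6 lists of the polymerase II machinery, 3 of 105 genes tested were called in the double knockdown (2.86%), and 1 of 103 without the targeted RPRD1A and RPRD1B (0.971%), beside 1.05% of all genes. The first set was the genes that encode a CTD-interaction domain. Of 8 tested, RPRD1A and RPRD1B were the only called members, and the others ran from SCAF4 at -0.56 (edgeR adjusted p = 0.38) to PCF11 at 0.14 (adjusted p = 0.82). None of 23 CTD kinases, cyclins and phosphatases was called. RPAP2, the phosphatase that associates with RPRD1 proteins, had 0.27 (adjusted p = 0.65), and CTDP1, the phosphatase FCP1, had -0.53 (adjusted p = 0.13). None of the 11 polymerase II subunits tested was called, with 9 below 0 and a median of -0.17 beside 0.003 for all genes tested. The largest subunit, POLR2A, had 0.18 (adjusted p = 0.32), and POLR2E had -0.27 (adjusted p = 0.076).

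Of 28 elongation and pausing factors 1 was called. NELFE, a subunit of the pausing complex NELF, stood at 60.5 and 71.5 CPM in the controls and at 28.5 and 51.7 CPM in the double knockdown, a log2 fold change of -0.70 ± 0.17 (edgeR adjusted p = 0.0266), and the singles had -0.02 and -0.12. The first double-knockdown sample lay well below the second, and without it NELFE had -0.43 and was not called (adjusted p = 0.428), while without the second it had -1.14. Its call was also lost without any one of the control or RPRD1B_KD samples. The other NELF subunits tested, NELFA (0.08), NELFB (0.14) and NELFCD (-0.15), were not called. None of 22 cleavage and polyadenylation factors and none of 14 Integrator subunits was called. In the first set the values ran from PAPOLG at -0.36 to CLP1 at 0.73 (adjusted p = 0.27), and in the second from INTS5 at -0.32 to INTS10 at 0.33.

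Proliferation genes, with which RPRD1B is associated, gave 1 call among 30 cell cycle and 28 DNA replication genes. This is read beside 1.05% of all genes called, so 1 call does not set these lists apart. None of 30 cell cycle genes was called: CCND1, which encodes cyclin D1, had -0.15 (edgeR adjusted p = 0.78), CCND2 had 0.34 and CDK1 had 0.30. Of 28 DNA replication genes, CDT1, which loads the replicative helicase, was called. It stood at 393 and 377 CPM in the controls and at 242 and 331 CPM in the double knockdown (-0.42 ± 0.09, adjusted p = 0.0122), with -0.29 and -0.25 in the singles. CDT1 was not called after the GC correction, in DESeq2, or without the first control, either RPRD1B_KD or the first double-knockdown sample, the last of which left -0.25. None of 20 Wnt and beta-catenin genes was called, with AXIN2 at -0.20, MYC at -0.06 and LGR4 at 0.77 (adjusted p = 0.14).

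Stress lists gave no call in the double knockdown. They hold 16 tested p53 targets (from BAX at -0.53 to TIGAR at 0.63), 18 genes of the ATF4 response, 9 genes of interferon and RNA sensing and 12 of the RNA interference machinery. In the ATF4 list 14 of 18 lay below 0 with a median of -0.15, and SLC3A2, an amino acid transporter chain, came closest to the threshold at -0.51 (edgeR adjusted p = 0.051). SLC7A5, its transport partner, is not in the list and was called lower at -0.48. In the interferon list IRF3 had 0.52 (adjusted p = 0.47) and MAVS had -0.22 (adjusted p = 0.37). These counts are read beside 1.05% of all genes called.

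The direct comparison with the single knockdowns shows which genes moved when the second siRNA was added. Against RPRD1A_KD, 12 genes were called (0.104%), 11 lower (0.0953%) and 1 higher (0.00866%). Against RPRD1B_KD 11 were called (0.0953%), 10 lower (0.0866%) and 1 higher (0.00866%). At an unadjusted p under 0.05 the numbers were 775 (6.71%) and 751 (6.51%). In each comparison the transcript of the added siRNA was among the called genes: RPRD1B had -1.23 ± 0.27 against RPRD1A_KD (edgeR adjusted p = 0.048) and RPRD1A had -2.22 ± 0.19 against RPRD1B_KD (adjusted p = 6.99e-11). The count against RPRD1A_KD was 6 without the second control sample and 1 or 2 without any one of the RPRD1A_KD samples, the RPRD1B_KD samples or the first double-knockdown sample. The count against RPRD1B_KD was 3 and 2 without its first and second sample, and without the replicate block the counts were 0 and 1.

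NAXE, ORMDL2, SNAPIN and TMEM141 were lower in the double knockdown than in the controls and than in each single knockdown. For ORMDL2 the samples of RPRD1A_KD stood at 48.1 and 63.8 CPM, those of RPRD1B_KD at 50.6 and 76.8 CPM and those of the double knockdown at 23.2 and 35.1 CPM. The log2 differences were -0.93 ± 0.17 from RPRD1A_KD (edgeR adjusted p = 0.0137) and -1.11 ± 0.17 from RPRD1B_KD (adjusted p = 0.000248). TMEM141 had -0.80 ± 0.15 (adjusted p = 0.0137) and -0.74 ± 0.15 (adjusted p = 0.0302).

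NAXE, an epimerase that repairs damaged NADH and NADPH, stood at 233 and 229 CPM in the controls, 198 and 232 CPM in RPRD1A_KD, 177 and 221 CPM in RPRD1B_KD and 127 and 157 CPM in the double knockdown. Its differences were -0.60 ± 0.10 from RPRD1A_KD (edgeR adjusted p = 0.0037) and -0.49 ± 0.10 from RPRD1B_KD (adjusted p = 0.0328). SNAPIN, a subunit of complexes that position lysosomes and vesicles, stood at 181 and 177 CPM in the controls and at 98.6 and 108 CPM in the double knockdown, with 146 to 168 CPM in the 4 single-knockdown samples. Its differences were -0.51 ± 0.11 (adjusted p = 0.048) and -0.60 ± 0.11 (adjusted p = 0.00582). In all 4 genes the 2 double-knockdown samples lay below the other 6. The genes were picked for being called lower than each other group in these same samples, so this order is no further support. SNAPIN and ORMDL2 overlap genes on the opposite strand (ILF2, and DNAJC14 with AC023055.1) and TMEM141 overlaps AL355987.3 on its own strand.

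NDUFAF3 was lower in the double knockdown than in RPRD1B_KD (-0.99 ± 0.12, edgeR adjusted p = 7.65e-07), and its difference from RPRD1A_KD of -0.54 ± 0.12 missed the threshold (adjusted p = 0.0586). NDUFAF3 overlaps DALRD3 on the opposite strand. ZNF707, a zinc finger gene, was the only gene called higher than in RPRD1B_KD. It stood at 10.3 and 8.7 CPM in the controls, 12 and 10.7 CPM in RPRD1A_KD, 4.9 and 3.1 CPM in RPRD1B_KD and 14.2 and 13.5 CPM in the double knockdown (1.81 ± 0.37 against RPRD1B_KD, adjusted p = 0.0302). The RPRD1B_KD samples held only 13 and 9 counts of ZNF707, and it was not called with DESeq2 or without the replicate block.

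For NRAS and CBX5 the double knockdown lay between the controls and RPRD1A_KD. NRAS, a RAS family GTPase, stood at 187 and 172 CPM in the controls, 107 and 83.8 CPM in RPRD1A_KD and 164 and 113 CPM in the double knockdown. It was called in RPRD1A_KD against the controls (-0.93 ± 0.11, edgeR adjusted p = 2.5e-06) and higher in the double knockdown than in RPRD1A_KD (0.53 ± 0.12, adjusted p = 0.048). The double effect of -0.40 missed the threshold (adjusted p = 0.058). NRAS was not called higher than in RPRD1A_KD with DESeq2, after GC correction or without the replicate block. CBX5, the heterochromatin protein HP1 alpha, had the opposite direction: 148 and 145 CPM in the controls, 237 and 238 CPM in RPRD1A_KD and 177 and 165 CPM in the double knockdown. It rose in RPRD1A_KD (0.70 ± 0.10, adjusted p = 3.75e-05), was lower in the double knockdown than there (-0.48 ± 0.10, adjusted p = 0.0241) and had 0.22 against the controls (adjusted p = 0.373).

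No gene passed the test for a departure from the sum of the single effects. The interaction, which is the double effect less the RPRD1A_KD and RPRD1B_KD effects on the log2 scale, gave 0 called genes of 11544 in edgeR (0%) and 0 in DESeq2. In edgeR 707 genes had an unadjusted p under 0.05 (6.12%), and the smallest adjusted p was 0.324. The 4 genes below both singles had interactions of -0.63 ± 0.23 (ORMDL2), -0.39 ± 0.14 (NAXE), -0.33 ± 0.15 (SNAPIN) and -0.36 ± 0.20 (TMEM141), with adjusted p from 0.672 to 0.827. With 2 samples per group, the absence of calls does not show that the effects added. Without the first double-knockdown sample 18 genes were called, a fit in which that group is 1 sample assumed to vary like the others.

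The genes with the smallest interaction p, none of which passed, differed in pattern. AKT1S1, an inhibitor subunit of the mTORC1 kinase, had -0.54 and -0.58 in RPRD1A_KD and RPRD1B_KD and -0.36 in the double knockdown, an interaction of 0.76 ± 0.18. The beta-tubulin gene TUBB (0.41 ± 0.10) and the ribosome biogenesis gene PES1 (0.56 ± 0.14) had the same order. OGG1, a DNA glycosylase that removes oxidised guanine, had 0.35 and 0.31 in the singles and -0.41 in the double, an interaction of -1.06 ± 0.25. BACH2 (-1.60 ± 0.40) and the pseudogene TCEA1P2 (-0.97 ± 0.25) were the other genes below the sum. The adjusted p was 0.324 for these 6 genes.

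Among the called genes, double and single effects can be set side by side, with the limits that they share the control samples and that the genes were picked on the double effect. The 106 lower genes had a median of -0.57 in the double knockdown, -0.30 in RPRD1A_KD and -0.33 in RPRD1B_KD, and the median of the summed single effects was -0.65. The double effect went beyond the sum in 35 of the 106. The 15 higher genes had medians of 0.67, 0.39 and 0.48, with 0.75 for the sum, and 2 of the 15 went beyond it. ORMDL2 (-1.42 against a sum of -0.79), NAXE (-0.70 against -0.31) and NELFE (-0.70 against -0.14) are among the genes beyond the sum, and GIPC1 (-1.49 against -2.12) and HOXD4 (1.61 against 2.39) are among those short of it.

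The design allows each siRNA to be read in a pair of backgrounds that share no sample: RPRD1B siRNA alone against CTRL, and the double knockdown against RPRD1A_KD, and likewise for the RPRD1A siRNA. Of the 74 genes called lower with RPRD1B siRNA alone, 53 lay below 0 when the same siRNA was added to RPRD1A_KD, where 50.8% of all genes did, and 3 were called lower there. Their median was -0.45 alone and -0.09 in the second background. All 10 genes called higher alone lay above 0 there, with medians of 0.54 and 0.19. For the RPRD1A siRNA, 29 of 40 lower genes lay below 0 in the second background (49.8% of all genes did) and 2 were called lower, with medians of -0.49 and -0.17, and the 5 higher genes were above 0 with 0.66 and 0.14. Genes chosen for passing a test in 1 background start from estimates that the choice enlarges, so the smaller medians do not by themselves show a weaker effect.

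Across the 8824 genes with a mean of 10 CPM or more, the effects of an siRNA in the 2 backgrounds had a Spearman correlation of 0.181 (Pearson 0.196) for RPRD1B siRNA and of 0.148 (Pearson 0.16) for RPRD1A siRNA. Within the double knockdown itself, the difference from the control in the first replicate pair and that in the second had a Spearman correlation of 0.156 (Pearson 0.163). These are descriptions across genes, which are not independent replicates, and the backgrounds share the 2 replicate numbers.

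**Figure D4:**
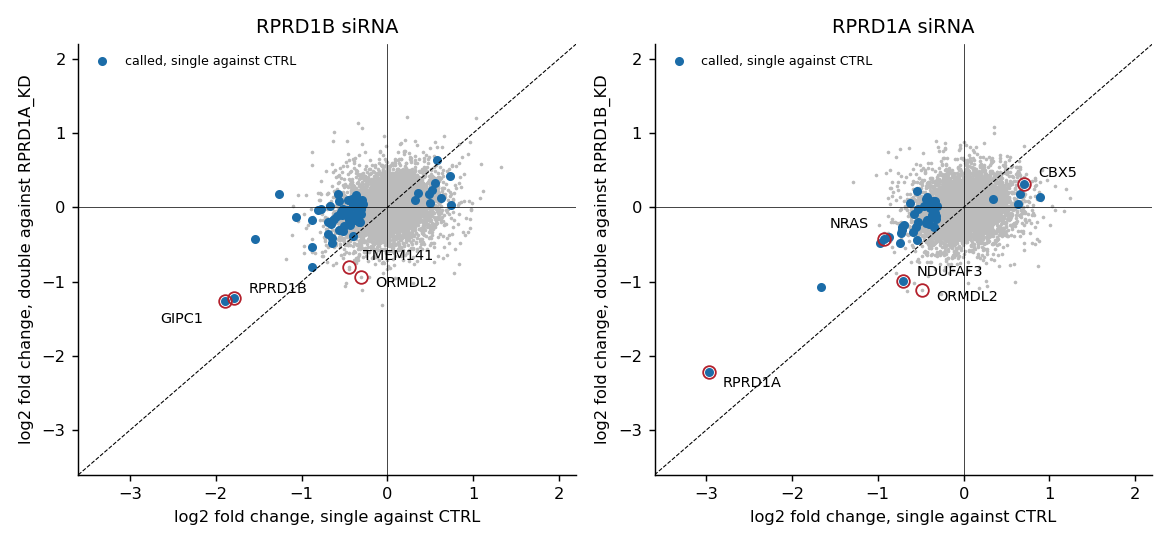
Log2 fold change of each siRNA added to a single knockdown (vertical axis) against its log2 fold change alone (horizontal axis), left for RPRD1B siRNA and right for RPRD1A siRNA, for 8824 genes with a mean of 10 CPM or more. Blue points were called in the single against CTRL, red rings mark named genes and the dashed line is equality; RPRD1B and GIPC1 on the left and RPRD1A and NDUFAF3 on the right are low in both backgrounds, and ORMDL2 lies farther from 0 when an siRNA is added to the other.

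A further comparison, chosen after the data were seen, used 4 samples outside the 8 of the double-knockdown fit: the triple knockdown RPRD1A_RPRD1B_RPRD2_KD against RPRD2_KD, 2 samples each, in a fit of 12 samples with the replicate block. It reads the joint effect of RPRD1A and RPRD1B siRNAs in cells that also received RPRD2 siRNA. Of 11646 genes tested 48 were called (0.412%), 21 lower (0.18%) and 27 higher (0.232%), and without the replicate block none was (edgeR). Leaving out 1 of the 4 samples gave 11 to 30 calls. RPRD1A stood at 75.1 and 100.01 CPM in RPRD2_KD and at 25.4 and 27.6 CPM in the triple knockdown (-1.72 ± 0.18, edgeR adjusted p = 3.43e-09). RPRD1B went from 37.8 and 25.1 CPM to 14.8 and 6.5 CPM (-1.59 ± 0.27, adjusted p = 0.000361). RPRD2 itself was higher in the triple knockdown, at 70.4 and 53.1 CPM beside 34.7 and 31.2 CPM in RPRD2_KD (0.89 ± 0.17, adjusted p = 0.00127), so the 2 groups differ in RPRD2 as well.

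Of the 106 genes called lower in the double knockdown, 75 lay below 0 in this second comparison, where 50.1% of all genes did, and 11 were called lower. Their median was -0.17, beside -0.0006 for all genes. GAPDH, called lower in the double knockdown, was called higher here (0.34, edgeR adjusted p = 0.0392). Of the other genes picked with it, RNU5F-1 (0.07), RNU4ATAC (-0.03), ATF5 (0.22) and RPS3 (0.24) were not called here. WNT10B (-0.58), H1FX (-0.20) and PGAM1 (-0.37) lay below 0 and were not called either. Besides RPRD1A, RPRD1B and GIPC1 (-1.17 ± 0.13, edgeR adjusted p = 2.64e-08), the 11 were NDUFAF3 (-1.07 ± 0.13, adjusted p = 8.82e-08), TMEM141 (-0.79 ± 0.15, adjusted p = 0.00152), SLC46A1 (-1.09 ± 0.25, adjusted p = 0.0229), JMJD4, ZCCHC12, RRP7A, C19orf70 and MRPL12. NDUFAF3 stood at 132 and 147 CPM in RPRD2_KD and at 55.6 and 78.1 CPM in the triple knockdown. ORMDL2, at 47.3 and 54.7 CPM against 26.5 and 44.0 CPM, had -0.53 ± 0.18 and was not called (adjusted p = 0.207), and NAXE (-0.35 ± 0.11) and SNAPIN (-0.39 ± 0.11) were not called either (adjusted p = 0.158 and 0.112).

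None of the 15 genes that rose in the double knockdown was called higher in these samples. Of the 15, 9 lay above 0, and the median was 0.07. HOXD4 had -0.75 ± 0.36 (edgeR adjusted p = 0.446) and FBXO28 had -0.47 ± 0.23 (adjusted p = 0.475), both opposite to their rise. MAN2A2 (0.76 ± 0.41, adjusted p = 0.538) and PCBD2 (0.60 ± 0.40, adjusted p = 0.658) had the same direction without passing. Some of these genes were already above CTRL in RPRD2_KD, the reference here. FBXO28 stood at 28.7 and 25.5 CPM beside 14.3 and 15.5 CPM in CTRL, and HOXD4 at 11.3 and 14.2 CPM beside 5.7 and 3.7 CPM. EEF1AKMT2 had 22.6 and 26.3 CPM beside 8.0 and 12.8 CPM. LAMC1 had 102 and 113 CPM beside 85.2 and 84.0 CPM, and FAM83D had 57.3 and 59.1 CPM beside 42.3 and 43.4 CPM. OGT had 56.4 and 70.0 CPM beside 46.3 and 49.3 CPM. BCOR and MAN2A2 also lay above CTRL. PCBD2, at 6.5 and 6.1 CPM, lay within the CTRL range, and DENND5B, MARF1 and GTF3C6 overlapped with CTRL. RPRD2_KD was not tested against CTRL. Whether any of these effects differs between the 2 comparisons was not tested. Over the 11476 genes tested in both, the Spearman correlation was 0.0986 and the Pearson correlation 0.113.

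**Figure D5:**
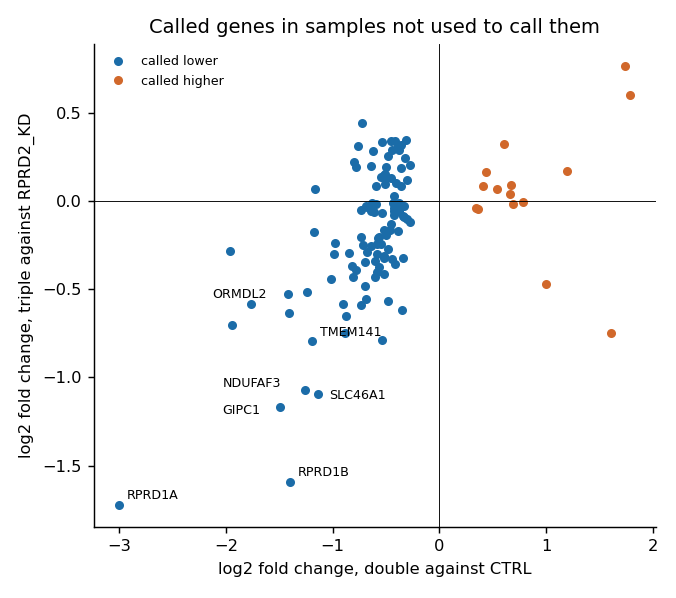
Log2 fold change of the triple knockdown against RPRD2_KD (vertical axis) for the 121 called genes against their log2 fold change in the double knockdown against CTRL (horizontal axis); the 2 comparisons share no sample. Blue points were called lower and orange points higher in the double knockdown: 75 of 106 blue points lie below 0, led by RPRD1A, RPRD1B, GIPC1, SLC46A1 and NDUFAF3, and 9 of 15 orange points lie above 0.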

How the data were processed

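The authors deposited raw counts, 1 table per sample with 58138 gene names. The submitters' processing notes name FastQC, STAR, HTSeq, DESeq2 and GRCh38, without versions, and strand use in counting is not given in the sources used here. The 5 closing rows for reads outside genes, ambiguous or not unique (46.7% to 47.1% of all reads counted in replicate 1, 40.5% to 41.3% in replicate 2) were left out. No molecular identifier or spike-in was used here, so floors cover counting error only and a shift of all transcripts would be removed by the scaling.

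edgeR 4.0.16 (with limma 3.58.1, in R 4.3.3) was run with filterByExpr (minimum count 10, total 15), TMM scaling, a coefficient for each of the 4 groups, the replicate number as a block, the quasi-likelihood test and Benjamini-Hochberg adjustment over all genes tested, with calls at adjusted p under 0.05. SE was obtained by dividing the absolute log2 fold change by the root of F, and CPM is TMM-scaled. The pipeline was run on simulated counts drawn from the spread and replicate effect fitted to these samples. That run takes the replicate block as given, so it cannot test the block. The replicate numbers come from the titles. Samples with the same number deviated together from their groups in all 6 pairs of groups (Pearson's r 0.346 to 0.527, mean 0.454, 8824 genes), so the numbers pair the samples. Replicates of a group differed beyond sampling noise (chi-square per degree of freedom 3.9 to 6.45).

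Genes named are RPRD1A, RPRD1B, RPRD2 and GIPC1; called genes with the largest change, at most 15 in each direction, with samples that do not overlap and a higher group mean of 10 CPM or more; for comparisons with the singles all called genes if 10 or fewer, otherwise the 5 in each direction with the smallest p; for the interaction, where none was called, the 3 in each direction with the smallest p; and per gene list the called members and the 3 largest changes. 1 gene that the rule names is not reported here. Other genes were picked after their values were seen. The members and lists were chosen with earlier results of these data known. GENCODE 29 (GRCh38) gave positions, spans and GC content, and 54848 names matched 1 gene. Alternatives were RLE scaling, DESeq2 1.42.0, no filter, a mean count of 50 or more, all 16 or 15 HEK293T samples, only the groups compared, no replicate block, a log2 fold change of 1 or more, GC correction (lowess span 0.3) and leaving out each sample. Flp-In samples were not analysed here.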

Additional observations from a re-analysis of the deposited data

How the results depend on the processing

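Calls in this comparison depend on the pairing of samples by replicate number. Of 32 named genes called in the double knockdown against CTRL, RPRD1A and GIPC1 kept their call in every alternative run, 30 lost it without the replicate block, and 24 lost it when some sample was left out; ORMDL2, NDUFAF3, TMEM141, ATG16L2 and SNAPIN lost it only without the block. No alternative moved the median of all genes by more than 0.1 in log2. Counts are given in the order double against CTRL, RPRD1A_KD against CTRL, RPRD1B_KD against CTRL, double against RPRD1A_KD and double against RPRD1B_KD. The values reported were 121, 45, 84, 12 and 11. Without the replicate block they were 2, 1, 1, 0 and 1, and the triple knockdown against RPRD2_KD went from 48 to 0. DESeq2 gave 44, 13, 26, 1 and 3. All 16 HEK293T samples in the fit gave 9, 1, 2, 1 and 3. A log2 fold change of 1 or more as a further condition gave 20, 3, 6, 2 and 4. A fit of only the groups compared gave 76, 83, 211, 23 and 9. Without the filter on low counts they were 145, 78, 109, 20 and 15, and the interaction had 6 calls in place of 0. Leaving out 1 sample gave 43 to 129, 8 to 83, 1 to 131, 1 to 13 and 2 to 13, for the interaction 0 to 18 and for the triple comparison 11 to 30. Of the 129 called without the second double-knockdown sample 66 were among the 121, and of the 69 without the first 45 were. Among the named values, signs turned in 3 that were not called: RPRD1A in the double against RPRD1A_KD was 0.037 with DESeq2, 0.0053 with all 16 samples, 0.0067 without the block and -0.57 to 0.53 when a sample was left out; RPRD2 in the double against CTRL was -0.0084 after GC correction and -0.046 to 0.10 when a sample was left out; RPAP2 was -0.013 to 0.54. The cause of these shifts was not tested.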
